A study of Mus musculus with 6 samples.

Results

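The 48 genes described here are nuclear genes of the respiratory complexes and of the tricarboxylic acid (TCA) cycle. They were chosen by name and matched to the gene symbols of the array's probe table. All 48 were found, each on 1 row of the 22206 transcript clusters tested. They comprise 18 subunits of complex I, 4 of complex II, 6 of complex III, 6 of complex IV, cytochrome c (Cycs), 1 subunit of complex V, 10 enzymes of the TCA cycle, and 2 regulators, Ppargc1a and Tfam. Expression was measured in total RNA of Müllerian ducts, the embryonic tubes that form the oviducts, uterus and upper vagina, with 3 control and 3 mutant embryos at E17.5 and an Affymetrix array for each. Controls carried Lats1f/f and Lats2f/f, floxed alleles of the Hippo pathway kinases. Mutants carried the same alleles and Amhr2cre/+, which expresses Cre recombinase from the locus of the anti-Müllerian hormone receptor, a gene of the duct mesenchyme. The mutants differ from the controls in Cre and in 1 Amhr2 allele as well as in recombination of the floxed alleles.

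Values are log2 signals, so a difference of 1 is 2-fold, and they compare arrays for the same gene and not genes with each other. Lats1 read 12.51, 12.13 and 12.20 on the control arrays and 11.12, 11.77 and 11.60 on the mutant arrays (limma adjusted p = 0.0958), and Lats2 had a log2 fold change of 0.22 ± 0.21 (SE). These 2 readings do not check the deletion, because the positions of their probes within the genes are unknown here. Of 14 Müllerian duct markers, Lhx1 and Hoxa13 were below background on every array. Control 3 stood apart: its urothelial markers lay 4.13 above their 6-array mean, against -1.12 to -0.64 on the other arrays, and its neuronal markers were also the highest. Smooth muscle markers depended on the measure. Their summed log2 signal was 15.09 and 16.27 on controls 1 and 2, against 18.02 on control 3 and 18.01 to 18.18 on the mutant arrays. Relative to their 6-array mean, control 3 was the highest array at 1.54. Controls 1 and 2 lay at -1.61 and -0.43, and the mutant arrays at -0.02 to 0.38. Values without control 3 are given for Cox4i2, Cox4i1, Ndufa4l2, Ndufv2, Cs, Idh3a, Mdh2, Ppargc1a, the TCA cycle group, the gene set as a whole and the glycolysis count.

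Oxidative phosphorylation passes electrons from NADH and succinate through complexes I to IV to oxygen, and complex V uses the resulting proton gradient to make ATP. The TCA cycle supplies the NADH and succinate, with succinate dehydrogenase (complex II) belonging to both. Some subunits exist as alternative isoforms whose use differs with tissue and oxygen, among them Cox4i1 and Cox4i2 of complex IV.

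The genes of the respiratory chain and TCA cycle lay close to 0 between genotypes, with a single exception. Cox4i2, the alternative isoform of a regulatory subunit of complex IV, rose 2.33-fold in mutant ducts, and no member fell past the threshold of an adjusted p of 0.05. Of the 48 genes, 1 was called (2.08%), against 3.26% of all transcript clusters, so the share called does not stand out from the array as a whole. Two-sided limma p-values were adjusted over all 22206 rows. At an unadjusted p under 0.05 there were 3 members (6.25%), 1 higher and 2 lower in mutants, against 15.3% of all rows. In tissue samples, fewer cells of a type and less RNA per cell cannot be told apart.

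The median log2 fold change was 0.00 over the 48 genes and -0.01 over all transcript clusters, with 24 members above 0 and 24 below. The changes were also small in size. The absolute log2 fold change had a median of 0.16 in the members and 0.20 in all rows, and it passed 0.5 in 1 member (2.08%) against 13.7% of all rows. This count depended on control 3. Without that array, Cs (0.69), Idh3a (0.61), Ppargc1a (0.60), Mdh2 (0.53) and Ndufv2 (-0.54) also passed 0.5 in size, none of them called. The share of all rows without control 3 is not given here. For 47 of 48 genes, all but Cox4i2, the 95% interval lay inside a 2-fold change in either direction, as it did for 84.8% of all rows. For 26 genes it lay inside 1.5-fold. The standard error had a median of 0.18 in the members and 0.20 in all rows. Changes smaller than these intervals could not be resolved with 3 arrays a group.

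**Figure D1:**
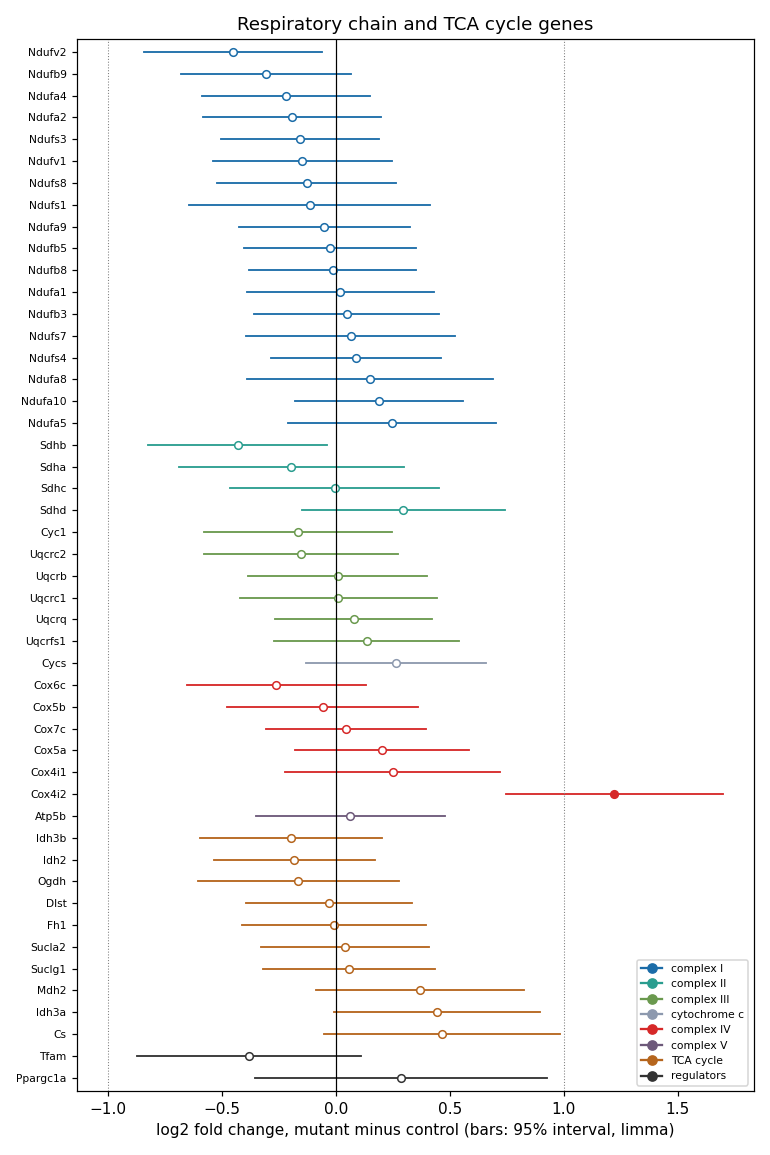
Log2 fold change of each of the 48 genes, mutant minus control, with bars for the 95% interval of the limma fit and colours for the complex or pathway. The filled point, Cox4i2 at 1.22, is the member past an adjusted p of 0.05; open points did not pass, and dotted lines mark a 2-fold change.

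Complex I, which oxidises NADH, had no subunit past the threshold among 18, and its changes ran from -0.45 to 0.25 with a median of -0.04. Ndufv2, an iron-sulphur subunit of the NADH-oxidising module, had the lowest value. It read 12.20, 12.46 and 12.07 in controls and 11.92, 11.80 and 11.66 in mutants, so the groups did not overlap. Its log2 fold change of -0.45 ± 0.17 (SE) had an unadjusted limma p of 0.0283 and an adjusted p of 0.251. At the other end, Ndufa5 read 10.26, 10.48 and 9.96 against 10.28, 10.40 and 10.76, with overlapping groups and a change of 0.25 ± 0.20. Ndufs1, which carries iron-sulphur clusters of the same module as Ndufv2, was set by a single array: control 2 read 10.84, and the other 5 arrays lay between 10.02 and 10.25.

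Groups that did not overlap were counted as a description of direction. They occurred in 7 of 48 members (14.6%), against 21.1% of all rows, with 1 member higher in mutants (10.9% of all rows) and 6 lower (10.2% of all rows). The 6 lower genes were Ndufa4, Ndufb9, Ndufs3 and Ndufv2 of complex I, Sdhb of complex II and Idh2 of the TCA cycle. Ndufa4, listed with complex I, is also known as a complex IV associated subunit. Ndufs3 shows how small such a separation could be, at 12.97, 12.97 and 12.94 in controls and 12.81, 12.90 and 12.70 in mutants. None of these 6 passed the test, with limma adjusted p from 0.251 for Ndufv2 to 0.700 for Ndufs3.

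Complex II had no called member among its 4 subunits. Sdhb, its iron-sulphur subunit, read 11.92, 12.20 and 12.32 in controls and 11.63, 11.86 and 11.66 in mutants. Each mutant array was below the lowest control, and the change of -0.43 ± 0.17 had a limma adjusted p of 0.279. Sdhd, a membrane anchor, read 10.85, 11.31 and 11.12 in controls against 11.22, 11.68 and 11.27, a change of 0.30 ± 0.20 with overlapping groups. The catalytic flavoprotein Sdha was at -0.20 ± 0.22 and the other anchor, Sdhc, at -0.01 ± 0.20. Complex III, which passes electrons to cytochrome c, ran from -0.17 ± 0.18 for the haem subunit Cyc1 to 0.14 ± 0.18 for the Rieske protein Uqcrfs1. Uqcrq varied least of the 48 genes, with all 6 arrays between 10.22 and 10.40. Cycs itself read 13.69, 13.29 and 13.27 in controls and 13.63, 13.65 and 13.75 in mutants, a change of 0.26 ± 0.18 (adjusted p = 0.542).

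Complex IV, cytochrome c oxidase, held the 1 called gene. Cox4i2 read 6.55, 6.70 and 7.26 in controls and 7.99, 7.97 and 8.22 in mutants, above the background of the array on all 6. The highest control, control 3, was below the lowest mutant. The log2 fold change was 1.22 ± 0.21 (SE), with a 95% interval from 0.74 to 1.70 and a limma adjusted p of 0.0143. The call held without control 3 (1.43, adjusted p = 0.00492) and without mutant 2 (0.0442). Leaving out control 1 (0.0642) or control 2 (0.0633) ended the call, and so did leaving out mutant 1 (0.0541) or mutant 3 (0.0576), with changes between 1.08 and 1.26.

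Cox4i1, the widely expressed isoform of the same subunit, read 11.15, 11.47 and 11.83 in controls and 11.61, 11.65 and 11.95 in mutants. Its groups overlapped, and its change of 0.25 ± 0.21 had an interval from -0.22 to 0.72 (adjusted p = 0.644). Without control 3, its groups no longer overlapped and the change was 0.42 (adjusted p = 0.399). Within each array, the difference Cox4i2 minus Cox4i1 was -4.60, -4.77 and -4.58 in controls and -3.62, -3.67 and -3.73 in mutants. It changed by 0.97 in mutants, with no overlap and an exact two-sided permutation p of 0.1, the smallest that 3 against 3 allows. Cox4i2 by itself did not overlap, so this p adds no separate evidence. The other 4 subunits lay between -0.26 for Cox6c and 0.20 for Cox5a. Without Cox4i2, the mean deviation of complex IV from its 6-array mean changed by 0.04, from -0.02 ± 0.10 in controls to 0.02 ± 0.11 in mutants (SD, n = 3 each). Atp5b, the catalytic beta subunit of complex V, read 16.45, 16.21 and 16.55 against 16.63, 16.56 and 16.21, a change of 0.06 ± 0.18.

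**Figure D2:**
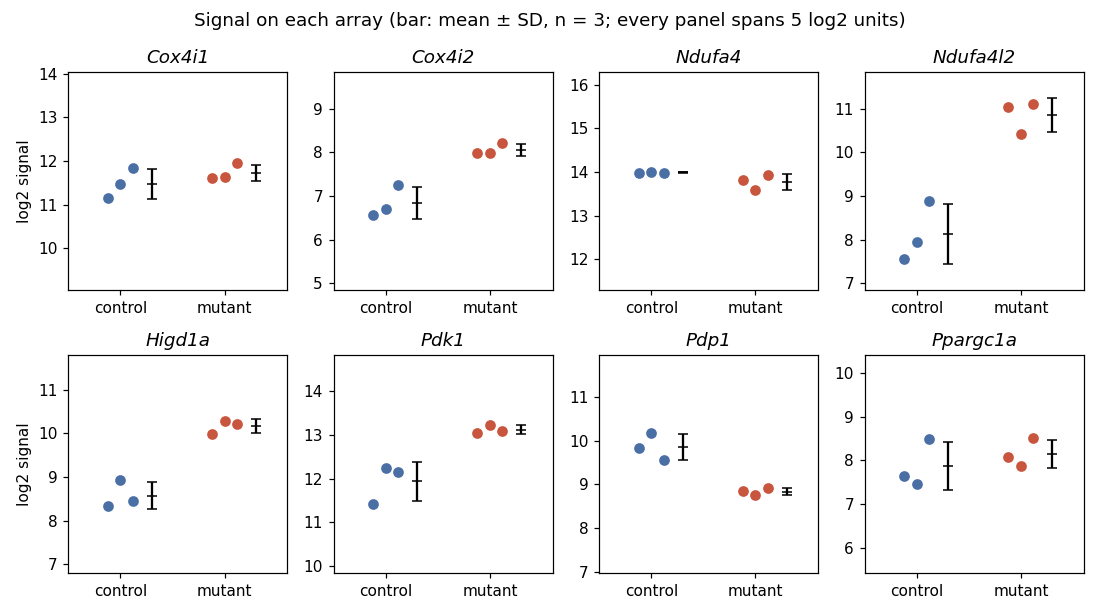
Log2 signal on each array for 8 genes, with 3 control points in blue, 3 mutant points in red and the mean ± SD as a black bar, on axes that each span 5 log2 units. Cox4i2, Ndufa4l2, Higd1a and Pdk1 were higher and Pdp1 lower on all mutant arrays, whereas Cox4i1 and Ppargc1a overlapped and Ndufa4 was lower by 0.22 without passing the test.

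No TCA cycle gene of 10 passed the threshold, and the changes ran from -0.20 to 0.47 with a median of 0.02. The 3 highest were Cs, Idh3a and Mdh2. Citrate synthase (Cs), which opens the cycle, read 12.60, 12.30 and 13.12 in controls and 13.16, 13.32 and 12.94 in mutants. Control 3 reached the mutant range, and the change of 0.47 ± 0.23 had an adjusted p of 0.385. Idh3a, the catalytic subunit of the NAD-dependent isocitrate dehydrogenase, read 10.25, 10.45 and 10.84 against 10.88, 11.17 and 10.82 (0.44 ± 0.20, adjusted p = 0.339). Malate dehydrogenase (Mdh2) was at 0.37 ± 0.20. On these 3 genes control 3 was the highest control. Without it, the groups of all 3 no longer overlapped, and the changes were 0.69 for Cs, 0.61 for Idh3a and 0.53 for Mdh2, still not past the threshold (limma adjusted p = 0.150, 0.191 and 0.260). Idh3b, a partner subunit of Idh3a, was at -0.20 ± 0.18, and Idh2, the NADP-dependent mitochondrial enzyme, at -0.18 ± 0.16. Sucla2, a subunit of succinyl-CoA synthetase, lay below background on all 6 arrays, between 4.49 and 4.78, so no change is read from it.

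The regulators also did not pass. Ppargc1a, which encodes the coactivator PGC-1alpha of mitochondrial biogenesis, read 7.65, 7.46 and 8.49 in controls and 8.08, 7.86 and 8.51 in mutants. The change was 0.29 ± 0.28 (SE), with a spread among controls of 0.55 (SD, n = 3) that control 3 set. Without control 3, the change was 0.60, the groups did not overlap, and the limma adjusted p was 0.272. Tfam, whose protein packages mitochondrial DNA and helps to start its transcription, read 8.43, 9.10 and 8.47 against 8.49, 8.12 and 8.25, a change of -0.38 ± 0.22 (adjusted p = 0.464). Control 2 was its highest array, as it was for Ndufs1.

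Read by complex on all 6 arrays, the gene groups did not separate the genotypes, apart from complex IV through Cox4i2. The mean deviation of complex I ran from -0.02 to 0.06 in controls and from -0.06 to 0.00 in mutants. For complex II the ranges were -0.05 to 0.16 and -0.24 to 0.14, and for complex III -0.09 to 0.06 and -0.04 to 0.04. The TCA cycle genes ranged from -0.14 to 0.11 on control and from -0.02 to 0.08 on mutant arrays. Over all 48 genes the arrays lay between -0.08 (control 1) and 0.07 (control 3). For the TCA cycle, the overlap rested on control 3. Controls 1 and 2 lay at -0.14 and -0.09, below each mutant array. For all 48 genes, controls 1 and 2 lay at -0.08 and -0.02, against -0.01 to 0.04 on mutant arrays. That mean includes Cox4i2, which read 6.55 and 6.70 on these controls and 7.97 to 8.22 on mutant arrays. The narrow gap is therefore not read as a shift of the other members. Fewer arrays make overlap rarer. In contrast, the 19 glycolysis genes measured lay at -0.78 to -0.20 on the control arrays and at 0.35 to 0.47 on the mutant arrays.

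**Figure D3:**
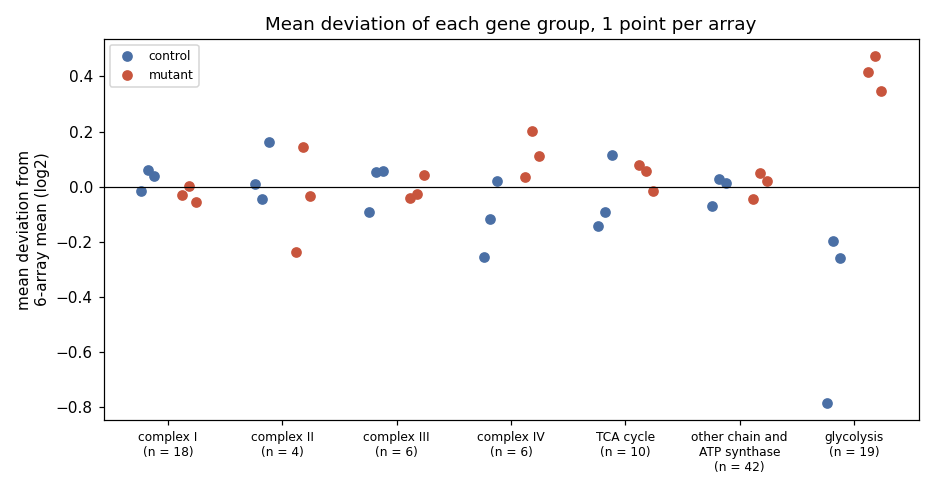
Mean deviation of each gene group from its 6-array mean, in log2 units, with 1 point per array, controls in blue and mutants in red. Complexes I to III, the TCA cycle and the other chain and ATP synthase subunits overlap between genotypes; complex IV includes Cox4i2, and the glycolysis points of the groups lie apart.

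Many respiratory chain promoters are known to bind the factors NRF1 and GABPA. The promoter window used here is 300 bases long, from 250 before to 50 after the RefSeq transcription start on GRCm38.p6, and 36 of the 48 genes had 1 or more windows, 42 in all. The NRF1 core TGCGCA, which reads the same on both strands, was present in 12 of 42 member windows (28.6%) and in 7.76% of all 32851 windows. The GABPA-type core CCGGAA, on either strand, was present in 31.0% of member windows and 14.9% of all windows. The windows of all genes include noncoding genes of other base composition, so these shares are descriptions. Uqcrc1, Sdhd and Sdha each hold the NRF1 core at 2 places. Cox4i2, the 1 called member, had no window, so every member with a window was uncalled whatever its motifs. Uqcrc1, with a change of 0.01 ± 0.19, and Sdhd are shown as examples. Capitals mark the core, and in Uqcrc1 the 2 copies lie end to end. The Uqcrc1 window is chr9:108936398-108936697 on the plus strand, and the Sdhd window is chr9:50603800-50604099 on the minus strand.
Uqcrc1: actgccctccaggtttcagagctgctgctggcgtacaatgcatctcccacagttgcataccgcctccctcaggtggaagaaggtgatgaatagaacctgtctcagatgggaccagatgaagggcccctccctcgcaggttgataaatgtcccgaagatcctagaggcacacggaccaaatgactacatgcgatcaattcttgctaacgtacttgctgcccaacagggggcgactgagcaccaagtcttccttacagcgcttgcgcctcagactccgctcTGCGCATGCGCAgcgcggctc
Sdhd: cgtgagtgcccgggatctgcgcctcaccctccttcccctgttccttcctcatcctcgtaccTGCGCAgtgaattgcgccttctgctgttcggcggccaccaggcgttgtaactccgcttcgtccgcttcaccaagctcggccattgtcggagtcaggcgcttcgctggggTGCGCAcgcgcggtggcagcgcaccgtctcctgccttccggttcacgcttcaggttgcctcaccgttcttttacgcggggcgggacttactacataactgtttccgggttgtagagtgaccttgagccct

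Other nuclear genes of the same machinery were read from lists chosen for this description. Of 42 further subunits of the chain and of ATP synthase, none passed the limma test in either direction, none had an unadjusted p under 0.05, and the median was 0.00. The smallest p belonged to Ndufv3, a subunit of complex I, with 0.46 ± 0.23 (adjusted p = 0.405). Of 24 regulators of mitochondrial biogenesis and mitochondrial DNA, 1 rose and none fell, with a median of -0.09. This was Prkaa2, the alpha 2 catalytic subunit of the energy sensor AMPK, which read 6.91, 7.42 and 7.41 in controls and 9.28, 9.88 and 10.01 in mutants (2.48 ± 0.24, limma adjusted p = 0.000681). Of the 24, 4 had an unadjusted p under 0.05 (16.7%, against 15.3% of all rows). Without overlap, 5 were higher (20.8%, against 10.9% of all rows) and 6 lower (25%, against 10.2%). Of 26 genes of import, pores and chaperones, none was called, 3 had an unadjusted p under 0.05, and Timm17a, a channel component of the inner membrane translocase, had the smallest p (0.56 ± 0.17, adjusted p = 0.132).

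Of 8 tissue-restricted isoforms, 1 rose and none fell. Ndufa4l2, a paralogue of the complex IV associated subunit Ndufa4, read 7.56, 7.94 and 8.88 in controls and 11.03, 10.42 and 11.11 in mutants. It rose 6.61-fold (2.73 ± 0.33, limma adjusted p = 0.00229), and its log2 fold change was 3.10 without control 3. Ndufa4 itself read 13.99, 14.01 and 13.98 against 13.81, 13.58 and 13.93, a change of -0.22 ± 0.16 (adjusted p = 0.598). The difference Ndufa4l2 minus Ndufa4 thus changed by 2.94, without overlap (exact two-sided permutation p = 0.1). Ndufa4l2 by itself did not overlap either, so this p adds no separate evidence. The muscle isoforms Cox6a2 (-0.36) and Cox7a1 (0.03) did not pass, and Cox8b was below background on all 6 arrays, so no change is read from it.

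Among 44 assembly and associated factors, 1 rose and none fell, and 31 lay below 0 (70.5%, against 51.5% of all rows), with a median of -0.10. Without passing the threshold, 6 were lower at an unadjusted p under 0.05 (13.6%, against 6.81% of all rows), and 9 were lower without overlap (20.5%, against 10.2%). Among these, Ndufaf2, a complex I assembly factor, had the smallest p (-0.51 ± 0.15, limma adjusted p = 0.140). Higd1a, which associates with the respiratory supercomplexes and is known to be induced by low oxygen, read 8.33, 8.92 and 8.46 in controls and 9.98, 10.29 and 10.22 in mutants. It rose 3.02-fold (1.59 ± 0.20, limma adjusted p = 0.00273).

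Of 14 measured genes of pyruvate entry into the cycle and its regulation, 1 rose and 1 fell, with a median of -0.29. Pdk1, the kinase that inactivates pyruvate dehydrogenase, read 11.42, 12.25 and 12.15 in controls and 13.05, 13.24 and 13.09 in mutants (1.18 ± 0.23, limma adjusted p = 0.0244). Pdp1, the phosphatase that reactivates it, read 9.82, 10.17 and 9.56 against 8.84, 8.75 and 8.91, a fall of 2.03-fold (-1.02 ± 0.19, adjusted p = 0.0202). The groups did not overlap for either gene. The Pdk1 call was lost without control 1 or any 1 mutant array (adjusted p up to 0.0894), and the Pdp1 call without any 1 array except control 3 (up to 0.0757). The other kinases were not called, with Pdk2 at -0.61, Pdk3 at 0.26 and Pdk4 at -0.43, nor were the phosphatase Pdp2 (-0.50) and its regulator Pdpr (-0.33). Of these, Pdk3 was higher and Pdp2 lower without overlap. The pyruvate dehydrogenase complex genes Pdha1 (0.49), Dlat (0.16), Dld (-0.30), Pdhb (-0.28) and Pdhx (-0.09) were not called. Groups did not overlap for Pdha1, Dlat and Dld. Of the 14 genes, 4 were higher without overlap (28.6%, against 10.9% of all rows) and 4 lower (28.6%, against 10.2%).

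Of 14 other TCA-linked enzymes, 2 rose and none fell. At an unadjusted limma p under 0.05 there were 7 (50%, against 15.3% of all rows). Of these, 5 were higher (35.7%, against 8.49%) and 2 lower (14.3%, against 6.81%). The 2 lower were Mdh1 (-0.57 ± 0.17, limma adjusted p = 0.122) and Suclg2 (-0.46 ± 0.19, adjusted p = 0.275), both without overlap. Me3, a mitochondrial malic enzyme, read 8.40, 8.22 and 7.83 in controls and 9.49, 9.87 and 9.20 in mutants (1.37 ± 0.22, limma adjusted p = 0.0109). Me1, the cytosolic malic enzyme, read 7.51, 8.13 and 9.48 against 10.37, 10.06 and 10.71 (2.01 ± 0.43, adjusted p = 0.0377), a call lost without any 1 array other than control 3 (up to 0.141).

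Of 19 measured genes of glycolysis and lactate handling, 7 rose and none fell, against 2.59% and 0.666% of all rows, with a median of 0.88. Hexokinase 2 (Hk2), the first step, read 7.92, 8.44 and 7.62 in controls and 9.47, 9.90 and 9.66 in mutants (1.69 ± 0.23, limma adjusted p = 0.00451). Slc16a3, the lactate exporter MCT4, rose 4.98-fold (2.32 ± 0.34), from 11.31, 12.94 and 12.10 to 14.36, 14.51 and 14.44. Phosphoglycerate kinase (Pgk1) rose by 1.69 ± 0.29 and Pfkfb3, which makes an activator of phosphofructokinase, by 1.76 ± 0.30. The other 12 genes were not called, and 2 of them, the phosphofructokinase isoform Pfkm (-0.69 ± 0.16, limma adjusted p = 0.0544) and the lactate dehydrogenase subunit Ldhb (-0.86 ± 0.21, adjusted p = 0.0639), were lower on every mutant array than on any control. Control 1 was the lowest array for Slc16a3, Pgk1 and Pfkfb3. Without control 1, the calls of Pfkl and Pfkfb3 were lost. The count of called genes fell to 4 without control 2, 2 without mutant 1, 3 without mutant 2 and 4 without mutant 3, and was 8 without control 3.

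Bnip3, a mitophagy receptor, was the 1 called gene of 11 in mitochondrial dynamics and mitophagy, and it rose by 1.96 ± 0.32. It and Pdk1 are also among the 12 hypoxia-responsive genes, of which 10 rose and none fell, against 2.59% and 0.666% of all rows. The Bnip3 call held with any 1 array left out, whereas that of Pdk1 did not, as given above. The mean deviation of the hypoxia list ranged from -1.15 to -0.70 in controls and from 0.86 to 0.87 in mutants. That of the 14 immediate early and stress genes, of which 5 rose (3 without control 2 or without mutant 1), ranged from -0.72 to -0.23 and from 0.53 to 0.60. Both lists moved with Cox4i2, Ndufa4l2, Higd1a and the glycolysis genes, and their part in these results was not tested.

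Higd1a and Pdk1 are shown because they rose in mutants and a promoter window of each holds the hypoxia response element core, ACGTG or GCGTG on either strand, in capitals. Pdk1 has a further window, at chr2:71874654-71874953, with 0 copies of this core. That core was in 43.8% of all windows and 66.7% of member windows, so its presence is common. The Higd1a window is chr9:121857747-121858046 on the minus strand, and the Pdk1 window shown is chr2:71872974-71873273 on the plus strand.
Higd1a: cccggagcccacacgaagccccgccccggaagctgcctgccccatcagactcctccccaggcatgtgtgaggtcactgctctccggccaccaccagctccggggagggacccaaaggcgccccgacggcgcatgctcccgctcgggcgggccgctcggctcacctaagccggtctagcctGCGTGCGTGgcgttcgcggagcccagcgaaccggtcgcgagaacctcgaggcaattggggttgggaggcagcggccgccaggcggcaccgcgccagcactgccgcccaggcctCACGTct
Pdk1: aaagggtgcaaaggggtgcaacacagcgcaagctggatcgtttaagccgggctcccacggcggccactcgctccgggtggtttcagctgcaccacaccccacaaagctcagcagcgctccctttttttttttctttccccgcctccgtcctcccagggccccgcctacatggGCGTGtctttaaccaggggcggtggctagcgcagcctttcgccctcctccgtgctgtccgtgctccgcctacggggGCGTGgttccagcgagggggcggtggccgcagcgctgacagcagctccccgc

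**Figure D4:**
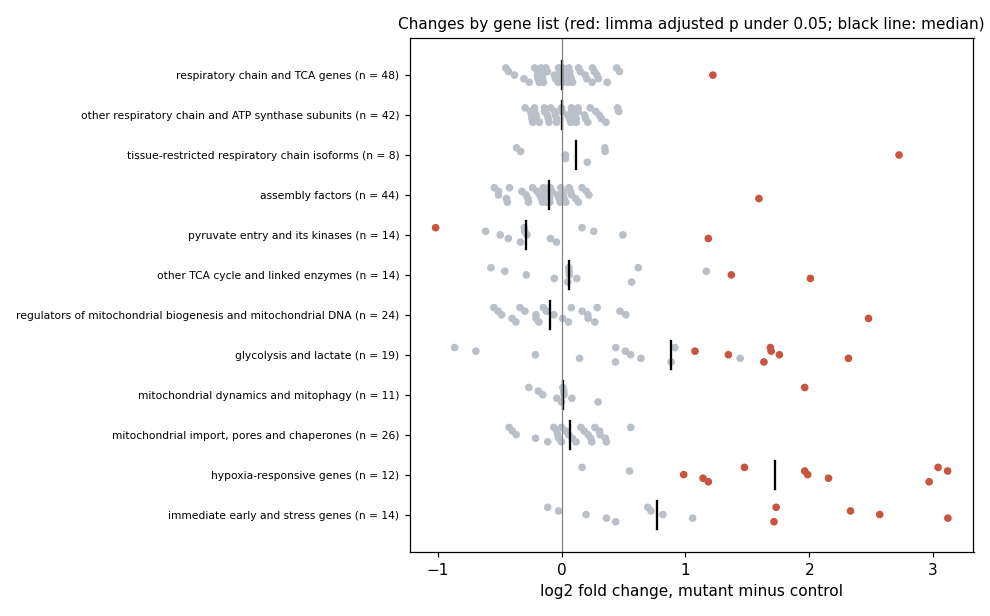
Log2 fold change of each measured gene by list, mutant minus control, in red where the limma adjusted p was under 0.05, with a black line at each list's median. The 48 respiratory chain and TCA genes sit around 0 with Cox4i2 alone in red, while 7 of 19 glycolysis and 10 of 12 hypoxia-responsive genes were called higher.

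Marker lists of cell types that a bulk duct could hold also lay apart between the groups in summed signal, in both directions. Cox4i2 and Ndufa4l2 are known markers of pericytes, the mural cells of small vessels. Of 10 other pericyte markers, a list added after the values were seen, 1 rose (Pdgfrb, 0.91 ± 0.18) and none fell. Their median was 0.42, their summed log2 signal was 14.69 to 14.92 on control and 15.19 to 15.54 on mutant arrays, and Higd1b was below background on every array. Macrophage markers rose in 6 of 9 cases, with a summed log2 signal of 13.54 to 13.70 in controls and 14.44 to 14.87 in mutants. Of 6 endothelial markers 1 rose and their median was -0.15, while their summed signal was 14.80 to 14.97 against 15.18 to 15.44. Their mean deviation overlapped, at -0.07 to 0.04 in controls and -0.21 to 0.14 in mutants. By summed signal, other lists were lower on every mutant array. The summed signal of Müllerian duct markers was 15.32 to 15.33 in controls and 14.45 to 15.18 in mutants, that of mesothelial markers 14.61 to 14.65 and 14.36 to 14.48, and that of proliferation markers 16.99 to 17.12 and 16.64 to 16.96. By mean deviation, the duct markers overlapped, at 0.01 to 0.34 in controls and -0.55 to 0.17 in mutants. The mesothelial markers overlapped too, at -0.28 to 0.05 and -0.01 to 0.11, with the higher mean in mutants. The proliferation markers stayed lower in mutants, at 0.05 to 0.16 and -0.19 to -0.04. Of the duct markers, Amhr2, the gene whose locus carries Cre in mutants, fell by 3.73 ± 0.25, Lhx1 was called higher from levels below background, and mesothelin (Msln) rose among the mesothelial markers by 1.48 ± 0.22. The part of these cell types in the rise of Cox4i2 and in the values of the other members was not tested. Of the mitochondria-rich tissues, 4 of 8 skeletal muscle, 2 of 5 heart muscle and 5 of 6 brown adipocyte markers were below background on every array, and none of the 3 lists had a called gene.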

How the data were processed

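Total RNA of 6 Müllerian ducts was hybridised to Affymetrix arrays. The authors deposited a table of log2 signals, 1 column per array, made with Transcriptome Analysis Console 4.0, per the submitters' processing notes. No label names the summarisation and normalization, and no further normalization was applied. Array medians were 6.87 to 6.95. Background was the median of 23 background probes of each array (5.35 to 5.88).

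Of 28846 rows, 22206 transcript clusters were fitted with limma 3.58.1 in R 4.3.3 (lmFit, eBayes, genotype only). P-values were adjusted by Benjamini-Hochberg over all rows, at a threshold of 0.05, and intervals are at 95%. The code was tested on simulated data with the row means and spreads of these arrays. It recovered 33% of log2 changes of 1 and 90% of changes of 2, with 4 false calls. A gene not called can therefore still differ 2-fold. Symbols came from the platform table, old and new symbols being tried, and a list gene with no matched symbol is not analysed here (no mitochondrially encoded gene of 13 matched). Pseudogene copies of these genes can share probes.

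Members and lists were chosen with earlier results of these data known. All members could be named; of each other list, up to 4 called genes with the smallest p, or the 1 gene with the smallest p, and a few uncalled genes were picked with their values known. The planned likeness to Cox4i2 over arrays is not reported because the arrays fall into 2 groups. Alternatives were quantile normalization, median centring, 2 filters on dim rows, a trended robust prior, array weights, a replicate block, means of a gene's rows, a threshold of 0.01, and each array left out. Replicate numbers did not pair the arrays. Figures used matplotlib 3.10.9 in Python 3.11.15.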

Additional observations from a re-analysis of the deposited data

How the results depend on the processing

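Cox4i2 was the only member called in the fit over 6 arrays or under any of the up to 15 alternatives, and the other 47 members were not called in any of them. The number of members called higher was 0 at a threshold of 0.01 and ran from 0 to 1 with an array left out; it was 0 without control 1, control 2, mutant 1 or mutant 3. No member was called lower. Members whose groups did not overlap ran from 7 over 6 arrays to between 10 and 14 with an array left out (20.8% to 29.2%), and over all transcript clusters from 21.1% to between 29.5% and 32.1%, where fewer arrays make overlap rarer. Transcript clusters called numbered 723, 299 at a threshold of 0.01, and from 360 to 697 with an array left out. The median log2 fold change of the members stayed between -0.03 and 0.02, and the mean change of each complex moved by less than its spread between arrays under every alternative. With the replicate number as a block, Cox4i2 was at 1.22 with an adjusted p of 0.0151; same-numbered arrays had correlations of deviations of 0.01, 0.04 and -0.00. Glycolysis calls were 6 with the replicate block and 10 with a trended robust prior, where 2 glycolysis genes were called lower, as they were without rows under the median signal.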

Other observations

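A further 9 transcript clusters carry M in place of a chromosome number in the array's identifiers, and the probe table used here gives them no gene symbol. None was called between genotypes by limma, and 0 had an unadjusted p under 0.05. All 9 log2 fold changes were below 0 (51.5% of all rows were), from -0.28 to -0.03 with a median of -0.11. Of the 9, 3 were lower without overlap, as were 10.2% of all rows. Each was above background on all 6 arrays.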
